A study of Homo sapiens with 6 samples.

Results

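The genes described here are 42 components and transcriptional targets of the NF-kappaB pathway, taken by symbol from a table of RNA-seq counts for 19202 genes, and all 42 were found in it. The samples were 3 libraries of control MHCC97H cells, labelled sorafenib sensitive, and 3 of MHCC97H cells labelled sorafenib resistant (SR). MHCC97H is an established line derived from a human liver cancer and known to metastasise readily, and sorafenib is a kinase inhibitor given in advanced disease. The dose and time used to obtain the resistant cells, whether they came from 1 clone, and whether drug was present at harvest were not stated in the labels. By role, 5 of the genes encode NF-kappaB subunits, 4 encode proteins of the IkappaB family, and 8 encode kinases of the pathway or subunits and adaptors of those kinases. A further 8 encode adaptors and ubiquitin ligases, 4 encode A20, ABIN proteins and CYLD, which restrain the pathway, and 13 are mainly outputs: chemokines, cytokines and other target genes.

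NF-kappaB is a family of dimeric transcription factors that IkappaB proteins hold inactive in the cytoplasm. Receptors for tumour necrosis factor (TNF), interleukin-1 (IL-1) and microbial products act through adaptors and ubiquitin ligases on the IkappaB kinase (IKK) complex, which marks IkappaB for destruction so that the dimers enter the nucleus. A non-canonical branch runs through the kinase NIK and processing of the NFKB2 product. Many targets are themselves brakes on the pathway, among them NFKBIA, TNFAIP3 and TNIP1, and in hepatocytes and liver cancer the pathway is known for its part in survival, inflammation and chemokine production.

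The promoters of several outputs are shown because these chemokine genes had the largest differences among the 42 and carry related kappaB letters. Each sequence runs 5′ to 3′ on the strand of its gene and comes from RefSeq on GRCh38.p14. The whole promoters hold 250 bases before and 50 after the transcript start. Capitals mark matches on either strand to the kappaB consensus, a motif of 10 bases (3 G, a purine, any 2 bases, 2 pyrimidines and 2 C), and overlapping matches on opposite strands run together. For CXCL8, where that consensus did not match, capitals mark a looser form of 9 bases that lacks the first G. CXCL5 lies at chr4:73998628-73998927, CXCL2 at chr4:74099146-74099445 and NFKBIA at chr14:35404700-35404999, all on the minus strand, and CXCL8 at chr4:73740319-73740618 on the plus strand.
CXCL5: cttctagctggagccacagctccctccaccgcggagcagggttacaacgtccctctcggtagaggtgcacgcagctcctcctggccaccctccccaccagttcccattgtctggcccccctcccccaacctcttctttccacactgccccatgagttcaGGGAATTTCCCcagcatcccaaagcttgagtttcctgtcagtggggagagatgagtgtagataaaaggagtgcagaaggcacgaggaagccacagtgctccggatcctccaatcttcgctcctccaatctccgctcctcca
CXCL2: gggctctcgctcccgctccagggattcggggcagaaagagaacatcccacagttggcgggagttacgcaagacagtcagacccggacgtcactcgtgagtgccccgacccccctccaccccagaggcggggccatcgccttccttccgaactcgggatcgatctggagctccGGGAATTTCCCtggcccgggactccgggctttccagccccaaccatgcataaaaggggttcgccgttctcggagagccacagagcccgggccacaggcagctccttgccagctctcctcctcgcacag
CXCL8: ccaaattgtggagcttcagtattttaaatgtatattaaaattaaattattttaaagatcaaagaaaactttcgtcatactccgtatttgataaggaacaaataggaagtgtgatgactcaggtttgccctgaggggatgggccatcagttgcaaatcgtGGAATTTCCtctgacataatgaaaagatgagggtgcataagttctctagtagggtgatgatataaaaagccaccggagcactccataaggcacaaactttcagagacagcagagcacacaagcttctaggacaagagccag
NFKBIA: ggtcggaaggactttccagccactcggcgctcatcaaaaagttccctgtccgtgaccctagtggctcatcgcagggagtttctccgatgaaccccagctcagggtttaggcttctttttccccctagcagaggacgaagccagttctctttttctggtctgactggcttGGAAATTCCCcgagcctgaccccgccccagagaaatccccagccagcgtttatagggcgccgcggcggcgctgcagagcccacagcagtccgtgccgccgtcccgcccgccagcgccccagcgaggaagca

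Shorter stretches, the match with 20 bases on each side, are given for the chemokine paralogs CXCL1 (chr4:73869294-73869344, plus strand) and CXCL3 (chr4:74038738-74038788, minus strand). They are also given for TNFAIP3 (chr6:137867172-137867233, plus strand) and TNIP1 (chr5:151081047-151081096, minus strand), which were lower in resistant cells, and for IL32 (chr16:3065284-3065334, plus strand), which was higher.
CXCL1: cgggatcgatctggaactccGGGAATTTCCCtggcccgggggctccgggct
CXCL3: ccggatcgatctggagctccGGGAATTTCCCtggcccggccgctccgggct
TNFAIP3: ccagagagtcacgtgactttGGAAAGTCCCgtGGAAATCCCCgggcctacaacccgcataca
TNIP1: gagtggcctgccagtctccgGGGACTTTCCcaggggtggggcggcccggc
IL32: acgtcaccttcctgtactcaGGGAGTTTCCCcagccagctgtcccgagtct

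The 11 bases in capitals were identical in CXCL1, CXCL2, CXCL3 and CXCL5. Over the 51 bases centred on them CXCL1 and CXCL3 shared 92.2% of letters, CXCL1 and CXCL2 84.3%, and CXCL5 shared 45.1 to 49.0% with the other three. The match began 79 bases before the start in CXCL1 and CXCL3, 78 in CXCL2 and 91 in CXCL5, and the looser match of CXCL8 also began 91 bases before. Promoters were at hand for 36 of the 42 genes; RELB, NFKBIE, IKBKB, CCL2, CSF1 and LIF were not in the table. The consensus was found in 22 of 52 promoters of these genes (42.3%; a gene can have several starts), against 2619 of 20521 promoters (12.8%) of all genes in the count table. With the second of the 2 free bases restricted to A or T it was found in 40.4% against 6.5%, and the looser form in 75.0% against 35.4%. By gene, a match was present in 20 of the 36 (55.6%), against 2347 of 14495 genes (16.2%) of the count table that had a promoter. It was present in 7 of 10 genes lower in resistant cells, 1 of 4 higher, and 10 of 20 that were tested and not called. The looser form was present in 9 of 10, 4 of 4 and 15 of 20 of these genes, so the split by call depended on the form used. The called genes IKBKB, CSF1 and LIF had no promoter and are not in these counts. A match is a description of the letters and not a measured binding site, and these genes were chosen as NF-kappaB components and targets.

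The libraries held 1913469 to 5345272 counts each, and control replicate 1 was the shallowest. Levels are given as CPM, counts scaled to a common library size with TMM factors, which does not correct for transcript length. Keratins KRT8 (1010 to 1401 CPM) and KRT18 and the liver factor HNF4A (36.0 to 44.9 CPM) were present in every library. Secreted hepatocyte products were detected at control means of 27.2 CPM for TF, 23.2 for APOB, 17.3 for ALB, 10.01 for FGB and 8.03 for SERPINA1, while APOA1 and TTR were near 0 (at most 0.470 and 1.17 CPM). Summed markers of immune cells reached 9.42 to 17.9 CPM in control and 9.21 to 11.6 CPM in resistant libraries over 11 genes. Those of fibroblasts and stellate cells reached 20.1 to 43.1 and 19.3 to 65.1 CPM over 10 genes, and those of endothelium 122 to 139 and 116 to 197 CPM over 7 genes. No marker was at 0 in every library. The 13 hepatocyte or hepatoma markers summed to 1957 to 2421 CPM in control and 1798 to 2145 CPM in resistant libraries. Most of that sum was KRT8 and KRT18, with means of 1276 and 810 CPM in control and 1099 and 758 CPM in resistant libraries. No other marker of the 13 had a group mean above 41.4 CPM, so the sum mostly shows these keratins. Of 10 tested, ALB, APOB and SERPINA1 were called lower and 0 higher. Of the 10 fibroblast and stellate markers 3 were tested, and RGS5 was called higher (log2FC 1.53, SE 0.44, adjusted p = 0.00799 in edgeR). RGS5 had 7.58, 7.05 and 19.2 CPM in resistant replicates 1 to 3. Only 1 of 11 immune and 3 of 7 endothelial markers were tested, and none of these was called. The endothelial genes VWF and CDH5 and the collagen gene COL1A2 were not tested. In resistant replicate 3 the endothelial genes VWF and CDH5 stood at 26.2 and 19.2 CPM, against 3.09 CPM or less in the other 5 libraries, and the collagen gene COL1A2 at 13.9 CPM, against 4.11 CPM or less. The part of these markers in the results was not tested beyond leaving out that library. With that library left out 12 of the genes described here were called lower and 4 higher, and the median log2FC was -0.32. In bulk samples such as these, a difference cannot tell fewer cells expressing a gene from less RNA per cell. The labels do not say whether replicates were separate cultures, so p-values rest only on library-to-library spread, part or all of which may be technical.

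Of the 42 genes 39 were tested, and 12 were lower and 5 higher in resistant cells by edgeR's quasi-likelihood test at a Benjamini-Hochberg adjusted p of 0.05 over all tested genes. These are 30.8% lower and 12.8% higher, where among all 10804 tested genes 24.1% were called, 12.3% lower and 11.7% higher. The list was chosen with earlier results of these data known, so these shares are only a description. The genes that fell were the chemokines CXCL5, CXCL2 and CXCL8, the cytokine CSF1, the adhesion molecule ICAM1, the IkappaB family genes NFKBIA and BCL3, the brakes TNFAIP3, TNIP1 and CYLD, and the kinases MAP3K14 and IKBKB. The genes that rose were the subunit RELA, the adaptors MYD88 and TRAF6, and the secreted factors LIF and IL32. The median log2 fold change (log2FC, resistant over control) of the tested members was -0.20, against -0.01 over all tested genes. At least 2-fold lower estimates were found for 7 members (17.9%, where 4.71% of all tested genes were), 4 of them called, and none was 2-fold higher. The 7 include CXCL3 and IKBKE, which passed the expression filter only through their control libraries, so this share and the median are given as a description. The libraries of the 2 groups did not overlap for 15 members that lay lower in resistant cells and 4 that lay higher, 48.7% of the tested members. Over all tested genes 38.1% did not overlap, 18.9% lower and 19.2% higher in resistant cells.

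**Figure D1:**
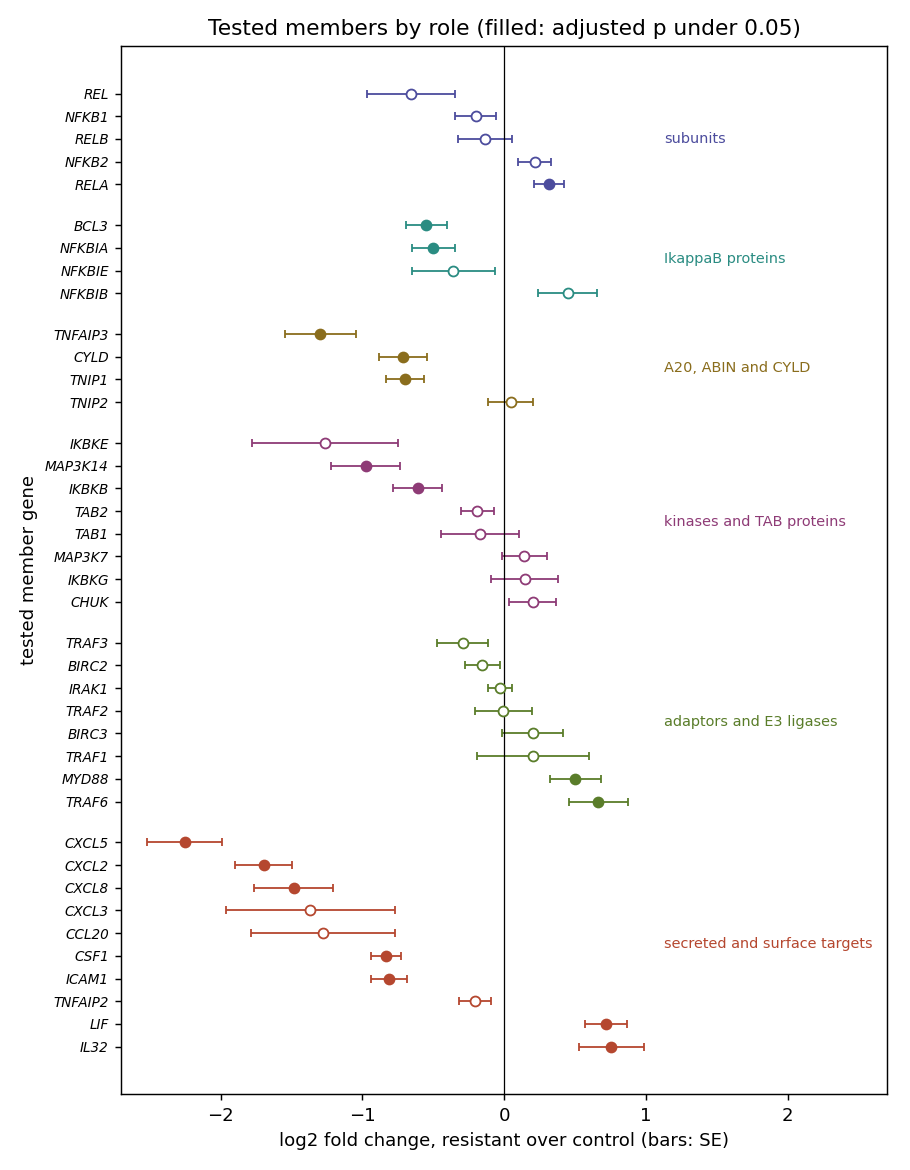
Log2 fold change, resistant over control, of the 39 tested members, grouped by role, with the standard error (SE) as bars; filled points passed an adjusted p of 0.05. Filled points lie left of 0 among the outputs, the IkappaB proteins, the brakes and the kinases, and right of 0 for RELA, MYD88, TRAF6, LIF and IL32.

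Among the outputs, 5 of 10 tested genes were lower and 2 higher, where 12.3% of all tested genes were lower and 11.7% higher. CXCL5, a neutrophil-attracting chemokine, had 28.3, 33.1 and 39.9 CPM in control replicates 1 to 3 and 4.87, 8.46 and 7.77 CPM in resistant replicates 1 to 3. It thus fell 4.77-fold (log2FC -2.25, SE 0.26, adjusted p = 1.63e-08 in edgeR), with every resistant library below every control library. CXCL2, a chemokine that acts on the same receptor, had 44.2, 46.1 and 50.2 CPM in control against 13.8, 14.3 and 15.1 CPM in resistant libraries. The resistant libraries were close together (SD 0.672 CPM, n = 3), all below the controls, and the log2FC was -1.70 (SE 0.20, adjusted p = 1.95e-08 in edgeR). CXCL8, interleukin-8, had 24.7, 18.8 and 30.8 CPM in control libraries and 7.85, 8.93 and 9.41 CPM in resistant ones. The control libraries differed among themselves more than the resistant ones, but the groups stayed apart (log2FC -1.49, SE 0.28, adjusted p = 8.86e-05 in edgeR).

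The remaining CXC chemokines rested on few counts. CXCL3 had 6, 24 and 34 counts in control and 2, 16 and 12 in resistant replicates 1 to 3, and its log2FC of -1.37 (SE 0.60) did not pass (adjusted p = 0.0908 in edgeR). CXCL3 entered the test through its control libraries, as 1 resistant library reached the expression filter of 2.49 CPM. CXCL1, with 6, 10 and 6 counts in control and 10, 2 and 9 in resistant libraries, was not tested. CXCL1, CXCL2 and CXCL3 are close paralogs: 5.13% of the windows of 50 bases in the longest CXCL2 transcript occur in CXCL1, and 9.24% occur in any other gene. The counts do not show how such reads were assigned.

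The 5 CXC genes lie within one stretch of chromosome 4, from the start of CXCL8 at 73740506 to the end of CXCL2 at 74099293 (GENCODE 29, GRCh38). Within that stretch and 500000 bases on either side the count table held 13 further genes, of which 7 were tested, 0 were higher and 2 were lower. The ones that fell were ALB, albumin (log2FC -1.62, SE 0.37, adjusted p = 0.00113 in edgeR), and AREG, the EGF-family ligand amphiregulin (log2FC -1.21, SE 0.11, adjusted p = 4.58e-11). EREG, which encodes the related ligand epiregulin and lies between CXCL2 and AREG, stood at 568 ± 50.4 CPM in control against 586 ± 17.8 CPM in resistant libraries (SD, n = 3 each; log2FC 0.05, SE 0.09). MTHFD2L, next to CXCL2, had 17.3 ± 0.677 and 18.0 ± 1.33 CPM. Over the whole window, lower levels were therefore interleaved with genes whose group means were close. Between CXCL8 and CXCL2 themselves, the other genes (CXCL6, PF4V1, PF4 and PPBP) had few or no counts and were not tested.

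**Figure D2:**
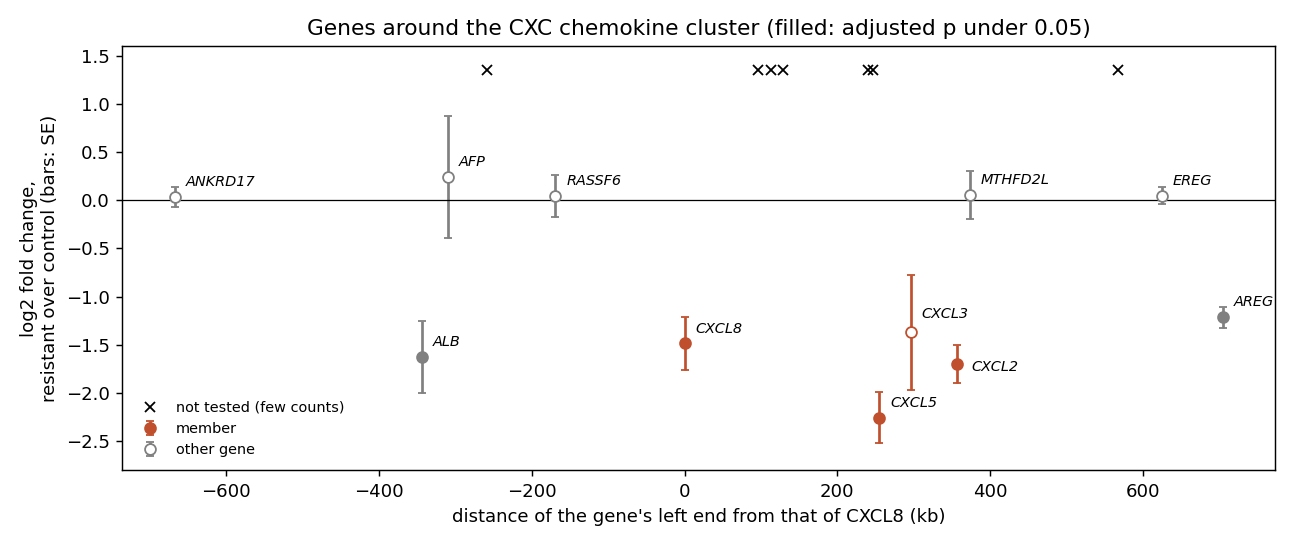
Log2 fold change, resistant over control, with SE bars, of genes around the CXC chemokine cluster, against the distance in kb of each gene's left end from that of CXCL8; filled points passed an adjusted p of 0.05 and crosses mark genes not tested. CXCL8, CXCL5 and CXCL2 lie between -1.49 and -2.25, while MTHFD2L and EREG beside them lie at 0.06 and 0.05.

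CSF1, the growth factor of macrophages, had 238, 225 and 206 CPM in control libraries and 125, 132 and 117 CPM in resistant ones. The fall of 1.78-fold was uniform over libraries (log2FC -0.84, SE 0.11, adjusted p = 8.74e-08 in edgeR). ICAM1, a ligand for leukocyte integrins, had 126, 119.96 and 125 CPM in control libraries and 55.5, 79.2 and 75.1 CPM in resistant ones. All resistant libraries were below all control libraries, resistant replicate 1 lowest (log2FC -0.81, SE 0.13, adjusted p = 7.44e-06 in edgeR). For ICAM1 25.1% of the exon bases also belong to an antisense gene, and whether counting used strand was not stated in the labels. CCL20, a chemokine for CCR6-bearing lymphocytes, had 15.4, 6.97 and 4.11 CPM in control libraries and 3.25, 4.23 and 2.86 CPM in resistant ones, which overlapped (log2FC -1.28, SE 0.51, adjusted p = 0.0625). Its log2FC was -0.69 without control replicate 1 (adjusted p = 0.456) and -1.62 without control replicate 3 (adjusted p = 0.0329). TNFAIP2, a TNF-induced gene, had 158 ± 15.9 and 136 ± 11.3 CPM (SD, n = 3 each; adjusted p = 0.186 in edgeR).

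LIF and IL32 differed in the opposite direction. LIF, a cytokine of the interleukin-6 family, had 45.8, 47.3 and 41.7 CPM in control libraries and 66.6, 76.2 and 78.6 CPM in resistant ones. It rose 1.64-fold without overlap (log2FC 0.72, SE 0.15, adjusted p = 0.000311 in edgeR). IL32, an inflammatory cytokine, had 18.0, 21.8 and 14.1 CPM in control libraries and 37.6, 29.2 and 25.8 CPM in resistant ones. The IL32 groups did not overlap (log2FC 0.76, SE 0.23, adjusted p = 0.0116 in edgeR), but IL32 missed the threshold when control replicate 3 (adjusted p = 0.0806) or resistant replicate 1 (0.0933) was removed. CCL2 and IL6 were below the expression filter and were not tested. CCL2, a monocyte chemokine, had 4, 10 and 9 counts in control and 0, 4 and 8 in resistant libraries. IL6 had 0 counts in every control library. That allows up to 3 counts or 0.565 to 1.54 CPM by library if counts are independent, and more if both mates of a pair were counted. In resistant libraries IL6 had 2, 2 and 0 counts, so no difference was detectable at this depth.

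**Figure D3:**
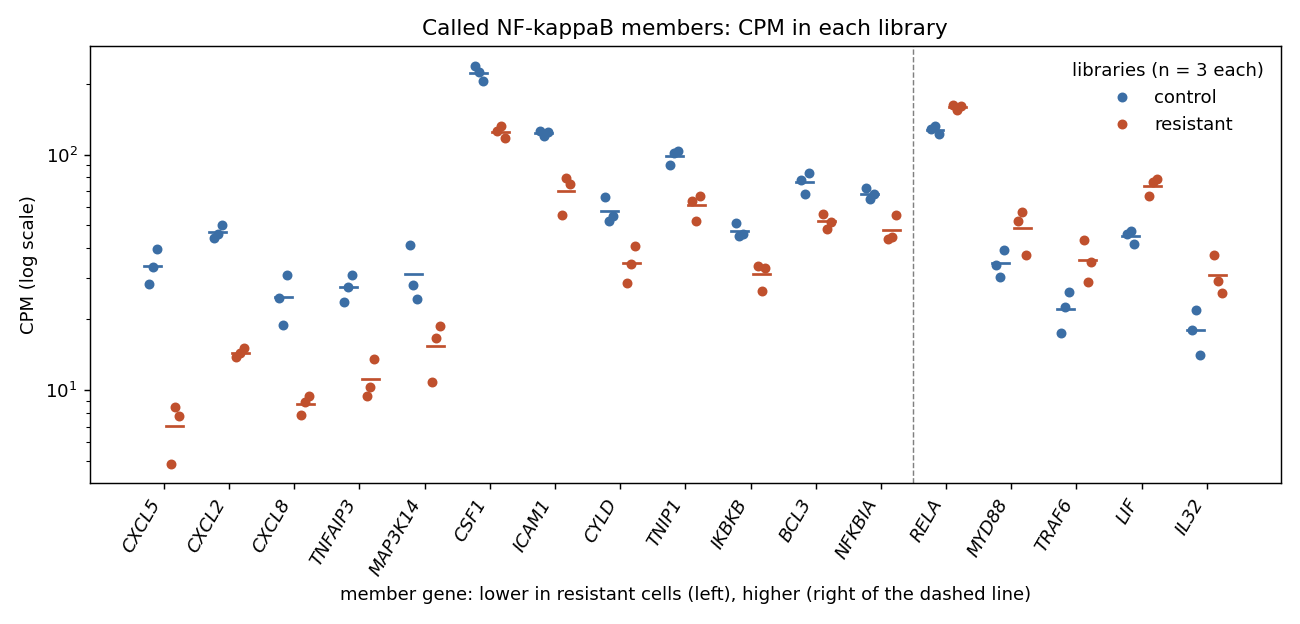
CPM on a log axis in each library for the 17 called members; points are libraries (3 control, 3 resistant) and short lines group means, with genes lower in resistant cells left of the dashed line and higher ones right of it. The groups are separate for every gene shown except MYD88.

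Of the 5 subunits RELA alone passed the test. A share of 1 in 5 called is near the 24.1% of all tested genes. RELA, the p65 subunit of the canonical dimer, had 128, 132 and 122 CPM in control libraries and 162, 155 and 160.2 CPM in resistant ones. The rise was 1.25-fold without overlap (log2FC 0.32, SE 0.11, adjusted p = 0.0264 in edgeR), and it missed the threshold without control replicate 3 (0.0945) or resistant replicate 3 (0.0726). NFKB1, the precursor of p50, had 72.5, 74.0 and 72.2 CPM in control libraries and 59.5, 53.6 and 76.5 CPM in resistant ones (log2FC -0.20, SE 0.15, adjusted p = 0.339). Resistant replicate 3 exceeded all control libraries while the other resistant libraries lay below them. NFKB2, the precursor of p52 in the non-canonical branch, had 99.7, 122 and 127 CPM in control libraries and 146, 126 and 136 CPM in resistant ones, with overlap (log2FC 0.21, SE 0.12, adjusted p = 0.187).

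RELB, the usual partner of p52, had 29.8, 42.0 and 38.1 CPM in control libraries and 42.5, 28.0 and 31.9 CPM in resistant ones. The ranges of RELB nearly coincided (log2FC -0.13, SE 0.19, adjusted p = 0.666 in edgeR). REL, the c-Rel subunit best known from lymphocytes, had 18.5, 21.8 and 10.3 CPM in control libraries and 10.8, 7.99 and 13.3 CPM in resistant ones. Its log2FC of -0.66 (SE 0.31) did not pass (adjusted p = 0.121), and the log2FC of REL ranged from -0.91 without control replicate 3 (adjusted p = 0.0417) to -0.38 without control replicate 2 (adjusted p = 0.524). For REL 50.7% of the exon bases overlap a non-coding gene on the same strand.

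Of the IkappaB family, NFKBIA and BCL3 fell. That is 2 of 4 genes, where 12.3% of all tested genes were lower. NFKBIA, IkappaBalpha, the main cytoplasmic inhibitor and itself an NF-kappaB target, had 72.0, 64.8 and 68.1 CPM in control libraries and 43.6, 44.7 and 55.4 CPM in resistant ones. The groups did not overlap (log2FC -0.50, SE 0.15, adjusted p = 0.0116 in edgeR), but the adjusted p was 0.0614 without resistant replicate 1 and 0.0639 without resistant replicate 2. BCL3, an atypical nuclear IkappaB that works with p50 and p52 dimers as a co-regulator of transcription, had 77.6, 67.8 and 83.6 CPM in control libraries and 55.8, 48.4 and 51.8 CPM in resistant ones. Each resistant library was below each control library (log2FC -0.55, SE 0.14, adjusted p = 0.00412). NFKBIB, IkappaBbeta, had 14.4 CPM in control replicate 1, 34.7 and 42.5 CPM in the other controls and 43.4 ± 2.30 CPM in resistant cells (SD, n = 3; log2FC 0.45, SE 0.21, adjusted p = 0.118). NFKBIB passed without control replicate 3 (log2FC 0.72, adjusted p = 0.0293), but its log2FC was 0.19 without control replicate 1 (adjusted p = 0.522). NFKBIE, IkappaBepsilon, had 15.3 ± 2.78 and 11.7 ± 1.23 CPM (SD, n = 3 each) and was not called (adjusted p = 0.416 in edgeR).

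Of the 4 genes for A20, the ABIN proteins and CYLD, 3 fell, 75.0% where 12.3% of all tested genes were lower. TNFAIP3 encodes A20, a ubiquitin-editing enzyme that ends signalling from the TNF receptor and is a strong NF-kappaB target, and it had 23.7, 27.5 and 30.8 CPM in control libraries and 9.47, 10.3 and 13.5 CPM in resistant ones. The fall was 2.46-fold, with no overlap (log2FC -1.30, SE 0.25, adjusted p = 0.000135 in edgeR). TNIP1, the A20-binding protein ABIN1, had 89.98, 101 and 103 CPM in control libraries and 63.6, 52.0 and 66.7 CPM in resistant ones. TNIP1 was also lower in every resistant library (log2FC -0.70, SE 0.13, adjusted p = 0.000131 in edgeR). CYLD, a deubiquitinase that removes linear and K63-linked chains, had 66.3, 52.0 and 54.6 CPM in control libraries and 28.4, 34.3 and 40.7 CPM in resistant ones. The CYLD groups were separate as well (log2FC -0.72, SE 0.17, adjusted p = 0.0015 in edgeR). TNIP2, or ABIN2, had 51.8 ± 10.5 and 53.6 ± 6.499 CPM (SD, n = 3 each; log2FC 0.04, SE 0.16).

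Among the kinases and their partners, MAP3K14 and IKBKB fell and 6 of 8 were not called. The share called, 25.0%, was near the 24.1% of all tested genes. MAP3K14, which encodes NIK, the kinase that starts the non-canonical branch, had 41.1, 28.1 and 24.3 CPM in control libraries and 10.8, 16.7 and 18.6 CPM in resistant ones. Control replicate 1 was highest, and the groups did not overlap (log2FC -0.98, SE 0.24, adjusted p = 0.00263 in edgeR). For MAP3K14 14.7% of the exon bases overlap an antisense gene. IKBKB, the catalytic IKKbeta of the canonical branch, had 51.4, 45.2 and 46.1 CPM in control libraries and 33.6, 26.3 and 32.9 CPM in resistant ones. It fell 1.53-fold (log2FC -0.61, SE 0.17, adjusted p = 0.00812 in edgeR), a call lost without resistant replicate 2 (0.0649). CHUK, the sister kinase IKKalpha, had 44.5 ± 8.32 and 52.2 ± 6.14 CPM (SD, n = 3 each; log2FC 0.20, SE 0.16, adjusted p = 0.414).

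IKBKG, the regulatory subunit NEMO, averaged 22.9 ± 3.83 CPM in control against 25.1 ± 8.68 CPM in resistant libraries (SD, n = 3 each; log2FC 0.14, SE 0.24). In IKBKG 45.5% of the windows of 50 bases also occur in the pseudogene IKBKGP1, so its counts are uncertain. IKBKE, the IKK-related kinase IKKepsilon, had 8, 45 and 36 counts in control and 8, 26 and 8 in resistant libraries. Its log2FC of -1.26 (SE 0.52, adjusted p = 0.0696 in edgeR) did not pass, and it entered the test through the control libraries, since 1 resistant library reached the filter. IKBKE passed in 4 of 15 other fits: limma-voom (adjusted p = 0.0284), halved counts (0.0237), without control replicate 1 (0.0417) and without resistant replicate 2 (0.0179, log2FC -2.05). It did not pass in the other 11, among them those without resistant replicate 3 (log2FC -0.91, adjusted p = 0.245) and without control replicate 3 (log2FC -0.98, adjusted p = 0.313). MAP3K7, the kinase TAK1, and its partners TAB1 and TAB2 had log2FC of 0.14 (SE 0.16), -0.17 (SE 0.28) and -0.19 (SE 0.12), none called.

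Among the adaptors and ubiquitin ligases, 2 of 8 rose and none fell. That is 25.0% called, near the 24.1% of all tested genes. MYD88, the adaptor of Toll-like and IL-1 receptors, had 33.9, 30.3 and 39.3 CPM in control libraries and 52.0, 56.9 and 37.4 CPM in resistant ones. Resistant replicate 3 lay below control replicate 3, so MYD88 was the only called gene among the 42 whose groups overlapped (log2FC 0.50, SE 0.18, adjusted p = 0.0371 in edgeR). DESeq2 did not call MYD88 (adjusted p = 0.0683). In edgeR the adjusted p was 0.0672 with control replicate 1 removed, 0.183 with control replicate 2, 0.106 with resistant replicate 1 and 0.206 with resistant replicate 2. MYD88 was still called with control replicate 3 removed (0.0314) or resistant replicate 3 removed (0.00932). TRAF6, the ubiquitin ligase below MYD88, had 17.5, 22.6 and 26.1 CPM in control libraries and 43.3, 28.7 and 34.98 CPM in resistant ones. TRAF6 rose 1.58-fold without overlap (log2FC 0.66, SE 0.21, adjusted p = 0.0165 in edgeR), and the call was lost without control replicate 1 (0.0638), control replicate 2 (0.0518) or resistant replicate 1 (0.12).

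IRAK1, the kinase between MYD88 and TRAF6, ranged from 661 to 741 CPM over all libraries and had a log2FC of -0.03 (SE 0.09). TRAF2, TRAF3 and BIRC2, parts of the complex that degrades NIK in resting cells, had log2FC of -0.01 (SE 0.20), -0.29 (SE 0.18) and -0.15 (SE 0.12), and none was called. BIRC3 (cIAP2) and TRAF1, both NF-kappaB targets, were highest in resistant replicate 1, at 51.7 and 13.5 CPM. The other resistant libraries had 23.5 and 34.0 CPM of BIRC3 and 6.11 and 7.37 CPM of TRAF1, inside or near the control ranges of 25.8 to 37.7 and 5.14 to 10.2 CPM. Neither was called, and without resistant replicate 1 the log2FC turned from 0.20 to -0.11 for BIRC3 and from 0.20 to -0.18 for TRAF1.

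**Figure D4:**
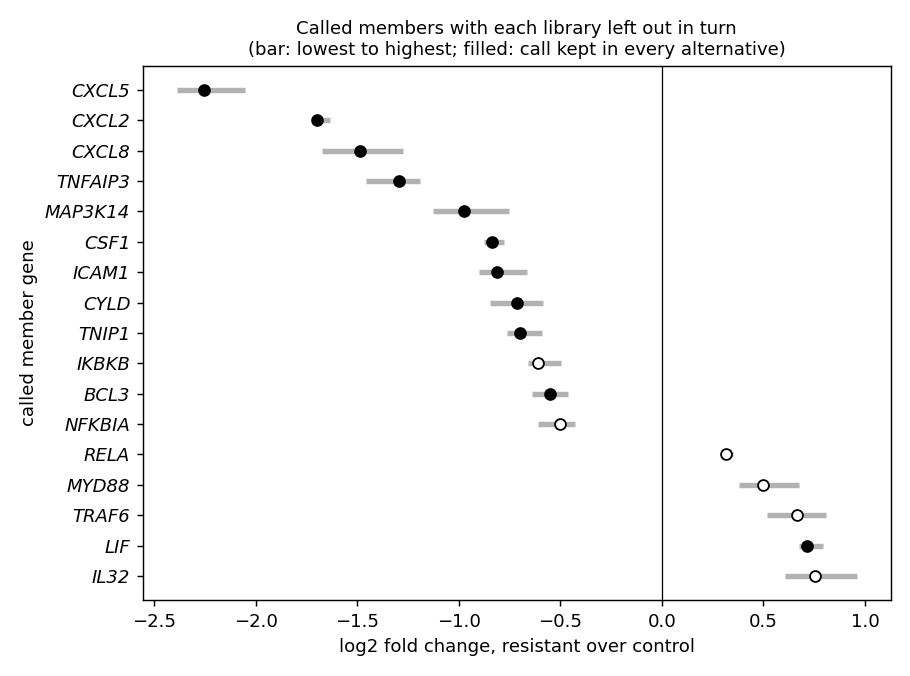
Log2 fold change of the 17 called members (points) with the range over fits that leave out each library in turn (bars); filled points kept their call in all 15 other fits made at an adjusted p of 0.05. All bars stay on their side of 0, and 11 of the 17 points are filled.

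Levels can be compared between genes only per length, here as CPM per kb of exon (GENCODE 29). IRAK1 ranked first in both groups, with 189 ± 7.82 and 186 ± 11.0 CPM per kb (SD, n = 3 each). In control cells CSF1 (45.6 ± 3.33), CXCL2 (38.5 ± 2.49), ICAM1 (37.99 ± 0.972) and RELA (37.6 ± 1.58 CPM per kb) followed, and the last 3 did not differ beyond their spread. In resistant cells RELA (46.9 ± 1.11) and NFKB2 (36.9 ± 2.74 CPM per kb) took the places after IRAK1. CXCL2 went from rank 3 to rank 20 at 11.8 ± 0.551 CPM per kb, and CXCL5 from rank 16 to rank 34 at 2.77 ± 0.751 CPM per kb. REL (1.499 ± 0.53 and 0.951 ± 0.236 CPM per kb), TRAF1 and IL6 were among the 5 lowest in both groups.

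**Figure D5:**
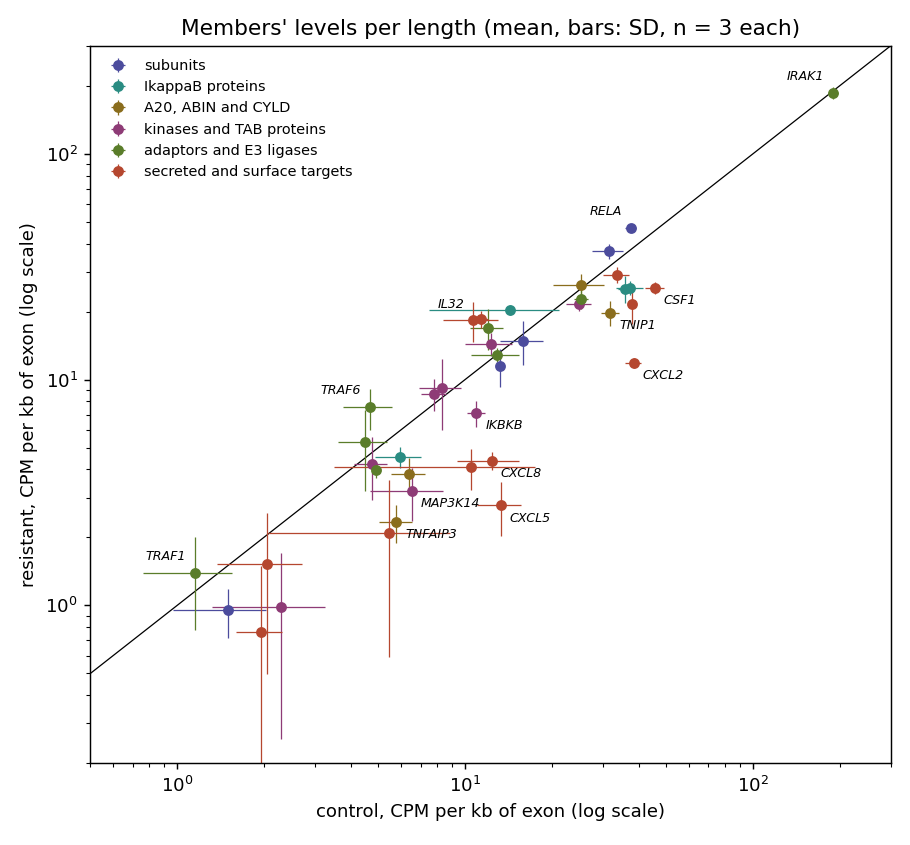
Mean CPM per kb of exon in control (horizontal) and resistant cells (vertical), both on log axes, with SD bars over 3 libraries each; the line marks equal levels and colours mark roles, and IL6, at 0 in control, is not drawn. CXCL2, CXCL5 and CXCL8 lie farthest below the line among well-measured genes, RELA and TRAF6 above it.

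A wider list of 113 other genes of the pathway, its ligands, receptors, further adaptors and targets, was read from the same fit. Of 77 tested, 14 were lower and 8 higher, 28.6% where 24.1% of all tested genes were called, with a median log2FC of -0.14. The receptors held 5 lower and 2 higher of 11 tested. TNFRSF1A, the main TNF receptor, went from 259.6 ± 25.7 down to 157 ± 17.9 CPM (log2FC -0.72, SE 0.11), and IL1R1, the IL-1 receptor, from 40.3 ± 4.24 to 20.7 ± 2.55 CPM (log2FC -0.94, SE 0.20). The Toll-like receptors TLR1 (log2FC -1.30, SE 0.19) and TLR6 (-0.64, SE 0.16) also fell. TNFRSF1B, the second TNF receptor, rose from 6.29 ± 0.703 to 14.7 ± 0.196 CPM (log2FC 1.23, SE 0.34), and TNFRSF12A, the receptor of TWEAK, from 387 ± 43.3 to 489.5 ± 67.7 CPM (SD, n = 3 for each of these levels). Adjusted p-values of these receptors in edgeR ran from 1.62e-06 for TLR1 to 0.0113 for TNFRSF12A.

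Of the ligands 3 of 13 were tested and 1 was called. IL1A, the cell-bound IL-1, fell from 17.4 ± 5.09 to 4.65 ± 1.92 CPM (SD, n = 3 each; log2FC -1.84, SE 0.37, adjusted p = 0.000239 in edgeR). TNF itself, with 4 counts summed over control and 7 over resistant libraries, was not tested. Among further adaptors and ubiquitin enzymes 5 of 34 fell and 2 rose, 20.6% where 24.1% of all tested genes were called. Those that fell included IRAK2 (log2FC -0.71, SE 0.12), RIPK2 (-0.71, SE 0.14) and XIAP (-0.46, SE 0.11). UBE2N, the enzyme that makes K63-linked chains with TRAF6, was higher (log2FC 0.63, SE 0.12), as was TOLLIP, an inhibitor of IL-1 and Toll-like receptor signalling (0.48, SE 0.12). Of 6 further nuclear and inhibitor genes IKBIP rose (log2FC 0.50, SE 0.16), 16.7% called and below the share of all tested genes. Of 23 other targets 3 fell and 3 rose, 26.1%, also near the share of all tested genes. PTGS2, cyclooxygenase-2 (log2FC -0.93, SE 0.29), PLK2 (-0.40, SE 0.11) and SDC4 (-0.31, SE 0.11) were lower. LAMB3 (0.79, SE 0.12), KLF6 (0.46, SE 0.09) and the survival gene BCL2L1 (0.28, SE 0.10) were higher.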

How the data were processed

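RNA was measured in 3 control and 3 resistant libraries of MHCC97H cells. The authors deposited raw counts by gene symbol, per the file headers, as whole numbers without normalization. Trimmomatic, HISAT2 and Bowtie2 are named in the submitters' processing notes. The counter, the build and the strand setting were not given in the sources used here. Of counts from 1 to 20, 81.8 to 88.5% were even; whether both mates were counted was not tested beyond halving the counts, and counting error may be larger than the counts imply. The single-library files equalled the table. Control totals were 1913469, 5345272 and 3401241 and resistant totals 3745068, 4280175 and 4961907 (replicates 1 to 3), and low genes are the least precise.

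Genes were filtered with filterByExpr (10 counts at median depth, 2.49 CPM, in 3 libraries), scaled by TMM and tested with edgeR 4.0.16 (quasi-likelihood F test, group as the only term) in R 4.3.3. The SE is the log2FC over the square root of F. P-values are 2-sided and adjusted over 10804 genes. The test was run on simulated independent counts, which lack the excess of even counts and so cannot check its effect. The members and lists were chosen with earlier results of these data known. Named are every member; of the wider list, at most 4 called genes per role and direction by smallest p, except 1 gene that is not reported here; and cell markers. AREG, EREG, MTHFD2L, VWF, CDH5 and TNF were named as context, partly after their values were seen. Spans and exon lengths are from GENCODE 29, promoters from RefSeq. Alternatives were other scalings and filters, DESeq2 1.42.0, limma-voom (limma 3.58.1), a replicate block, halved counts, an adjusted p of 0.01 and each library left out. Figures used matplotlib 3.10.9 in Python 3.11.15.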

Additional observations from a re-analysis of the deposited data

How the results depend on the processing

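The 12 lower members became 11 to 14 and the 5 higher ones 2 to 4 when each library was left out. There were 3 higher without control replicate 1 or without control replicate 2, and 2 without resistant replicate 1. The median log2FC of members ran from -0.32 (without resistant replicate 3) to -0.19, and all called genes from 2001 to 2261. At an adjusted p of 0.01, 1651 genes were called, 11 members lower and 1 higher, and 5 genes of the wider list higher. Of 17 called members 11 kept the call in all 15 other fits at 0.05, and 4 uncalled ones gained it in some.

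Replicate numbers are shared by the groups. Deviations from the group means, over all tested genes, correlated at -0.02, 0.03 and -0.01 between same-numbered libraries. Between libraries of different numbers the correlations ran from -0.060 to 0.064. These values over all genes cannot exclude a shared step that affected some genes. With a replicate block 2518 genes were called, with 12 members lower and 6 higher, NFKBIB being added (log2FC 0.53, adjusted p = 0.0487 in edgeR).

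No called member changed sign in any fit. Among uncalled ones, TRAF2 was 0.0041 without a filter, 0.012 with at least 1 CPM in 3 libraries and 0.0020 with the replicate block. Over fits leaving out a library, log2FC ran from -0.15 to 0.094 for TRAF2, -0.059 to 0.24 for TNIP2, -0.14 to 0.35 for IKBKG, -0.32 to 0.062 for TAB1, -0.068 to 0.016 for IRAK1, -0.18 to 0.52 for TRAF1 and -0.11 to 0.44 for BIRC3. Depth limits CXCL1, CXCL3, CCL2, CCL20, IL6, IKBKE and TRAF1 most.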
